A study of Sus scrofa with 16 samples.

Results

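FDPS, CYP51 and SREBF2 are genes of cholesterol synthesis and of its control, and they were followed here in the diaphragm and the psoas major, a loin muscle, of Iberian pigs. All probe sets with 1 of these 3 symbols as their single gene symbol in the platform annotation were taken, which gave 6 of 24123 probe sets. FDPS had 1 probe set, CYP51 had 1 and SREBF2 had 4. The 3 genes appear to have been selected on their log2 difference between the muscles in an earlier analysis of these same arrays. Whether their feeding values also played a part is not stated, so that the p values for feeding below are not known to be free of the choice. Their difference between psoas and diaphragm is therefore given as a description, with no test of it, while feeding level, sex and the relations among the genes within a muscle were tested.

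The animals were 8 Iberian pigs of 211 days of age, 4 of them under 20% feed restriction and 4 on the high feeding level, with 2 females and 2 males in each. All had eaten 1 pelleted diet before restriction began, and the labels do not say when that was. Each animal gave 1 Affymetrix array per muscle, 16 arrays in all, with 2 arrays for each of the 8 joint groups of muscle, sex and feeding.

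Cells make cholesterol from acetyl-CoA through the mevalonate pathway. FDPS, farnesyl diphosphate synthase, makes the isoprenoid from which both sterols and the lipid anchors of prenylated proteins are built, and CYP51, lanosterol demethylase, works further down, on the sterol branch alone. SREBF2 encodes SREBP-2, a membrane-bound transcription factor that is carried out of the endoplasmic reticulum by SCAP and cut when sterols are low, and that then switches on the genes of the pathway, its own gene among them. INSIG proteins hold it back when sterols are plentiful. Since SREBP-2 is controlled by this cutting, an mRNA level of SREBF2 is not a measure of its activity.

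The values were log2 expression values made by the authors with GCRMA, a method that corrects for background and makes the arrays' distributions alike, and a value below 4 was taken as near background. Array medians lay between 3.56 and 3.62, and arrays of 1 muscle correlated at 0.956 to 0.987 over the 11467 probe sets that were tested. A probe set was tested if it reached 4 on at least 4 of the 16 arrays. Of 7 defining genes of skeletal muscle, 5 were on the array, and their summed log2 level was 16.9 to 17.0 in both psoas and diaphragm.

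FDPS, CYP51 and 1 probe set of SREBF2 reached 4 on all 16 arrays. The FDPS probe set ranged from 7.35 to 8.80 with a median of 7.87, the CYP51 probe set from 5.77 to 7.67 with a median of 6.49, and the SREBF2 probe set from 4.50 to 5.80 with a median of 5.15. The other 3 SREBF2 probe sets never left the floor. They lay between 2.46 and 2.52, between 2.04 and 2.08 and between 2.01 and 2.05, and none was tested. All statements on SREBF2 thus rest on 1 probe set that its other 3 probe sets neither repeat nor contradict, and whose values were only moderately above background.

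All 3 genes were higher in psoas than in diaphragm on average, with FDPS the most uniform. FDPS measured 7.87, 8.21 and 8.80 (lowest, median and highest of 8 arrays, log2) in psoas, against 7.35, 7.55 and 7.88 in diaphragm. The ranges of the muscles met at their edges only, the highest diaphragm array lying above the lowest psoas array by little. Within an animal, psoas was above diaphragm in 8 of 8, with paired log2 differences from 0.35 in animal 7 to 1.08 in animal 3. The mean paired difference was 0.65 ± 0.23 (SD, n = 8 animals), a 1.57-fold higher level in psoas.

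CYP51 varied more between animals. It measured 6.20, 6.99 and 7.67 (lowest, median and highest of 8 arrays, log2) in psoas, against 5.77, 6.27 and 6.76 in diaphragm, with ranges that overlapped widely. Psoas was above diaphragm in 7 of 8 animals. The exception was animal 5, a restricted female, whose paired difference was -0.17, while animal 4, a male on high feeding, had the largest at 1.39. The mean paired difference was 0.62 ± 0.47 (SD, n = 8), or 1.54-fold.

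SREBF2 measured 5.12, 5.28 and 5.80 (lowest, median and highest of 8 arrays, log2) in psoas, against 4.50, 5.04 and 5.17 in diaphragm, again with overlap. Psoas was above diaphragm in 8 of 8 animals, but in animal 5 by only 0.02 and in animal 7 by only 0.11. The largest paired difference, 1.07, belonged to animal 1, whose diaphragm array had the lowest SREBF2 value of all. The mean was 0.44 ± 0.34 (SD, n = 8), or 1.36-fold. For comparison, 11.7% of all tested probe sets were higher in psoas in 8 of 8 animals and 22.9% in at least 7.

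**Figure D1:**
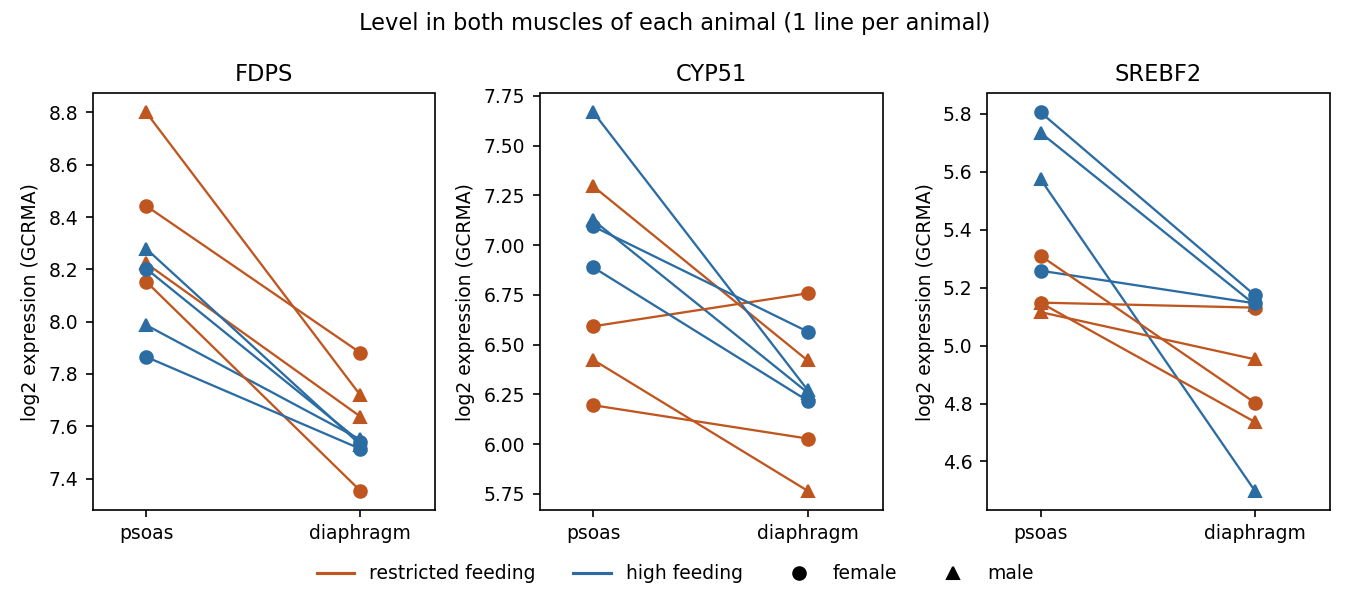
Log2 expression (GCRMA, vertical axis) of FDPS, CYP51 and SREBF2 in the psoas and diaphragm arrays, 1 line per animal, coloured by feeding level and with a circle for females and a triangle for males. Every line of FDPS and SREBF2 falls towards diaphragm, while 1 line of CYP51, that of restricted female 5, runs the other way.

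Beside FDPS and CYP51, no other tested gene of cholesterol synthesis was called between the muscles. Of the 24 names listed for the pathway, older names of 3 enzymes included, 11 were on the array with a single symbol and 9 were tested. Across the comparison of the muscles 27.0% of all tested probe sets were called, at a limma adjusted p under 0.05, 14.6% higher and 12.4% lower in psoas. With 1 probe set per gene, 29.5% of 4571 genes were called, 17.3% higher in psoas and 12.2% lower. In the pathway 2 of 9 genes were called higher, FDPS and CYP51 themselves, which the choice of members fixes, and none lower. The median log2 difference of the 9 was 0.05, against 0.04 over all genes tested. As the 9 include FDPS and CYP51, this median is not free of the choice either.

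Enzymes before and after these 2 did not pass the threshold. HMGCS1, which makes HMG-CoA at the head of the pathway, differed by 0.04 ± 0.10 (log2 difference, psoas minus diaphragm, ± SE), and ACAT2, which makes its acetoacetyl-CoA, by 0.05 ± 0.10 at a level near 4. FDFT1, squalene synthase, which takes the FDPS product into the sterol branch, was the gene just outside the threshold, at 0.35 ± 0.15 with limma adjusted p = 0.093. CYP51 lay just inside it at 0.0195, a value given only to show where the choice fell and not as a test. FDFT1 was higher in psoas in 6 of 8 animals and was called without animal 1 (0.46, adjusted p = 0.0215). After CYP51 in the pathway, the sterol reductase TM7SF2 (0.01 ± 0.13), the methylsterol oxidase MSMO1 (-0.12 ± 0.10), HSD17B7 (0.06 ± 0.17) and the sterol desaturase SC5D (-0.30 ± 0.13) were not called either. When all probe sets were tested, and without animal 4, CYP51 was not called and the pathway held 1 call. Without animal 8, SC5D was called lower in psoas as well.

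SREBF2 was the 1 gene called of 5 tested for SREBP control, against 29.5% of all genes, and again its call is fixed by its choice. SCAP, the escort of SREBP-2, differed by 0.03 ± 0.12 (log2 difference ± SE). The retention factors INSIG1 and INSIG2 differed by 0.23 ± 0.15 and 0.17 ± 0.09, with INSIG2 higher in psoas in 7 of 8 animals. UBE2G2, a ubiquitin-conjugating enzyme of the endoplasmic reticulum, differed by 0.01 ± 0.09, at means near background of 4.09 in psoas and 4.08 in diaphragm. The median of the 5 was 0.17, against 0.04 over all genes, but the 5 include SREBF2, so that this median is not free of the choice. SREBF1, the partner gene of fatty acid synthesis, lay near background and was not tested.

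Genes that take up, export or divert sterols and isoprenoids were called in both directions. VLDLR, a lipoprotein receptor, was higher in psoas by 0.53 ± 0.15 (log2 difference ± SE, limma adjusted p = 0.0174, 8 of 8 animals), and so was the HDL receptor SCARB1, by 0.50 ± 0.16 (adjusted p = 0.0328, 7 of 8 animals). SCARB1 lay little above background, at a mean of 4.86 in psoas and 4.35 in diaphragm. LIPA, the lysosomal lipase that frees cholesterol from its esters, had a log2 difference of -0.62 ± 0.17 and was lower in psoas in 7 of 8 animals (adjusted p = 0.0151). These were 3 calls of 6 genes tested, against the 29.5% of all genes. With the animal as a block NPC1 was called higher in psoas as well, which made 4 of 6. That block also raised the calls over all 11467 tested probe sets from 3094 to 3836, so that 29.5% is not the share for it. In the group of sterol efflux and storage 3 of 5 were called, against the same 29.5%, each of the 3 lower in psoas: the cholesterol exporter ABCA1 (-1.15 ± 0.22, adjusted p = 0.0019), APOE (-1.03 ± 0.18, adjusted p = 0.0011) and MYLIP, the ubiquitin ligase that degrades the LDL receptor (-0.69 ± 0.19, adjusted p = 0.0172). ABCA1 and APOE were lower in psoas in all 8 animals. With the animal as a block NR1H3, a nuclear receptor that senses oxysterols, was called too, and in the other direction, so that 1 gene was higher and 3 were lower in psoas. Without animal 4 CYP27A1, a sterol hydroxylase, was called higher. The median of these 5 was -0.69.

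Among 6 genes of the isoprenoid branch, FNTB, a subunit of the farnesyltransferase that uses the FDPS product, was higher in psoas by 1.88 ± 0.46 (log2 difference ± SE, limma adjusted p = 0.0080), and ICMT, which methylates prenylated proteins, by 0.84 ± 0.20 (adjusted p = 0.0073), both in 8 of 8 animals. FNTA, the partner subunit of FNTB, was not called, at -0.46 ± 0.28, and its 2 tested probe sets differed in sign. The branch thus held 2 calls of 6 genes tested, against 29.5% of all genes. FNTB and ICMT were called under every setting, while several calls of the preceding paragraph were not kept under each. SCARB1 missed the threshold when all probe sets were tested and without animal 2, 4, 5, 6 or 8 (adjusted p from 0.0589 to 0.0895), VLDLR without animal 2 (0.0503) or 3 (0.0611).

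**Figure D2:**
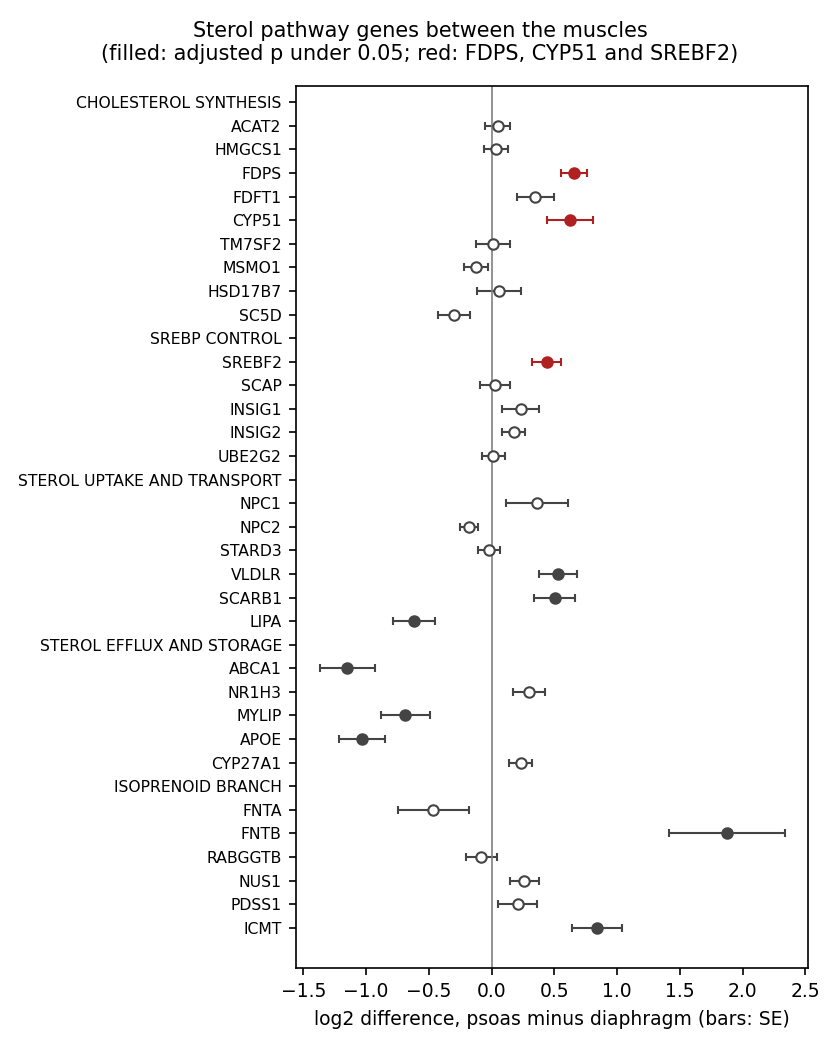
Log2 difference, psoas minus diaphragm, on the horizontal axis for every tested gene of 5 sterol and isoprenoid lists, with bars of 1 SE from the limma fit on 16 arrays and filled points for adjusted p under 0.05. The filled points of FDPS, CYP51 and SREBF2 follow from how they were chosen. In the cholesterol synthesis group FDPS and CYP51 lie to the right at 0.65 and 0.62, while HMGCS1, TM7SF2 and HSD17B7 lie at 0.04, 0.01 and 0.06.

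Other cell types and the actin control of RNA quality also moved with the muscle. Called lower in psoas, against 12.2% of all genes, were 6 of 7 tested markers of endothelium, 5 of 7 of immune cells, 5 of 7 of fibroblasts, 7 of 7 of hepatocytes and 2 of 3 of adipocytes. The fibroblast marker COL3A1, a collagen, was called higher in psoas. All 7 endothelial and all 7 immune markers had negative differences. The summed log2 level of the endothelial markers was 9.97 to 10.6 in psoas, against 10.7 to 11.3 in diaphragm, and that of the hepatocyte markers 7.17 to 7.99 in psoas, against 8.14 to 11.4. The adipocyte sum was 10.1 to 10.8 in psoas, against 10.6 to 11.95 in diaphragm, with LEP, PPARG and CEBPA below 4 on every array. Of the fibre markers, 4 of 6 fast ones were called higher in psoas, against 17.3% of all genes, and 6 of 9 slow ones lower, against 12.2%. The actin control, whose 3' minus 5' difference grows with RNA breakdown, was 3.45 ± 0.25 in psoas and 3.81 ± 0.45 in diaphragm (log2, SD, n = 8 each). The same difference of the GAPDH control was -0.10 ± 0.05 in psoas and -0.05 ± 0.10 in diaphragm. With the actin difference as a covariate the psoas minus diaphragm difference was 0.54 for FDPS, 0.72 for CYP51 and 0.39 for SREBF2. SREBF2 then fell outside the threshold, which describes how near to it the choice lay and is not a test. VLDLR (0.41), LIPA (-0.57) and MYLIP (-0.49) kept their direction with that covariate but were not called either, with limma adjusted p of 0.0883, 0.0554 and 0.0965. What the cell markers add to these differences was not tested. In whole muscle, fewer cells of a type and less RNA per cell cannot be told apart.

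Feed restriction went with different directions for the 3 genes in psoas, lower for CYP51 and SREBF2 and higher for FDPS, but no probe set of the array passed the threshold between feeding levels. In psoas, SREBF2 measured 5.15, 5.12, 5.15 and 5.31 (log2) in restricted animals 2, 3, 5 and 8, against 5.57, 5.73, 5.80 and 5.26 in animals 1, 4, 6 and 7 on high feeding. The restricted animals lay close together, and female 7 was the one animal on high feeding that fell among them. The mean was 5.18 ± 0.09 in restricted animals and 5.59 ± 0.24 in animals on high feeding (SD, n = 4 each). The log2 difference was -0.41 (95% confidence interval -0.74 to -0.08), with unadjusted p = 0.0206 and limma adjusted p = 0.370. It ran from -0.54 to -0.33 when 1 animal was left out.

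CYP51 in psoas measured 6.42, 7.29, 6.59 and 6.20 in restricted animals 2, 3, 5 and 8, against 7.12, 7.67, 6.89 and 7.09 in animals 1, 4, 6 and 7 on high feeding. Of the restricted animals, male 3 lay among those on high feeding and the other 3 lay below all of them. The log2 difference was -0.57 (95% interval -1.07 to -0.06), with unadjusted p = 0.0323 and limma adjusted p = 0.403. At an unadjusted p under 0.05 stood 11.3% of all tested probe sets, 1291 of 11467, and 0% were called, so that SREBF2 and CYP51 were among many.

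FDPS in psoas measured 8.22, 8.80, 8.15 and 8.44 in restricted animals 2, 3, 5 and 8, against 7.99, 8.28, 8.20 and 7.87 in animals 1, 4, 6 and 7 on high feeding. Here restricted male 3 and restricted female 8 lay above every animal on high feeding, and the other 2 restricted animals lay within their range. The log2 difference was 0.32 (95% interval -0.06 to 0.71, limma adjusted p = 0.503).

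In diaphragm the feeding levels lay closer together for all 3 genes. SREBF2 measured 4.74, 4.95, 5.13 and 4.80 in restricted animals 2, 3, 5 and 8, against 4.50, 5.14, 5.17 and 5.15 in animals 1, 4, 6 and 7 on high feeding. Male 1 stood apart at the bottom of its group, and the groups overlapped. The log2 difference was -0.08 (95% interval -0.46 to 0.29, limma adjusted p = 0.889) and turned positive without animal 4 or 8 (0.02 and 0.003).

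CYP51 in diaphragm measured 5.77, 6.42, 6.76 and 6.03 in restricted animals 2, 3, 5 and 8, against 6.26, 6.27, 6.22 and 6.57 in animals 1, 4, 6 and 7 on high feeding. Restricted animals spread to both sides of those on high feeding. The log2 difference was -0.09 (95% interval -0.57 to 0.39, limma adjusted p = 0.917), and it was positive without animal 2 or 8 (0.06 and 0.04).

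FDPS in diaphragm measured 7.64, 7.72, 7.35 and 7.88 in restricted animals 2, 3, 5 and 8, against 7.55, 7.53, 7.54 and 7.51 in animals 1, 4, 6 and 7 on high feeding. The animals on high feeding were nearly equal, at 7.53 ± 0.02, while the restricted ones varied, at 7.65 ± 0.22 (SD, n = 4 each). The log2 difference was 0.11 (95% interval -0.18 to 0.41, limma adjusted p = 0.783). In diaphragm 9.60% of all tested probe sets had an unadjusted p under 0.05 and 0% were called.

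Ordered by their means, the 4 groups of muscle and feeding level thus stood differently for the 3 genes. For FDPS the order from the top was restricted psoas (8.40 ± 0.29), psoas on high feeding (8.08 ± 0.19), restricted diaphragm (7.65 ± 0.22) and diaphragm on high feeding (7.53 ± 0.02). For CYP51, restricted psoas had 6.63 ± 0.47 and psoas on high feeding 7.19 ± 0.33, which was the highest of the 4, while restricted diaphragm had 6.24 ± 0.44 and diaphragm on high feeding 6.33 ± 0.16. For SREBF2, restricted psoas had 5.18 ± 0.09 and psoas on high feeding 5.59 ± 0.24, again the highest of the 4, while restricted diaphragm had 4.91 ± 0.18 and diaphragm on high feeding 4.99 ± 0.33. The ranges of neighbours in each order overlapped for all 3 genes. The gap between neighbouring means was larger than either SD for restricted psoas against psoas on high feeding in all 3 genes, and for psoas on high feeding against restricted diaphragm in FDPS, but for no other neighbours.

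**Figure D3:**
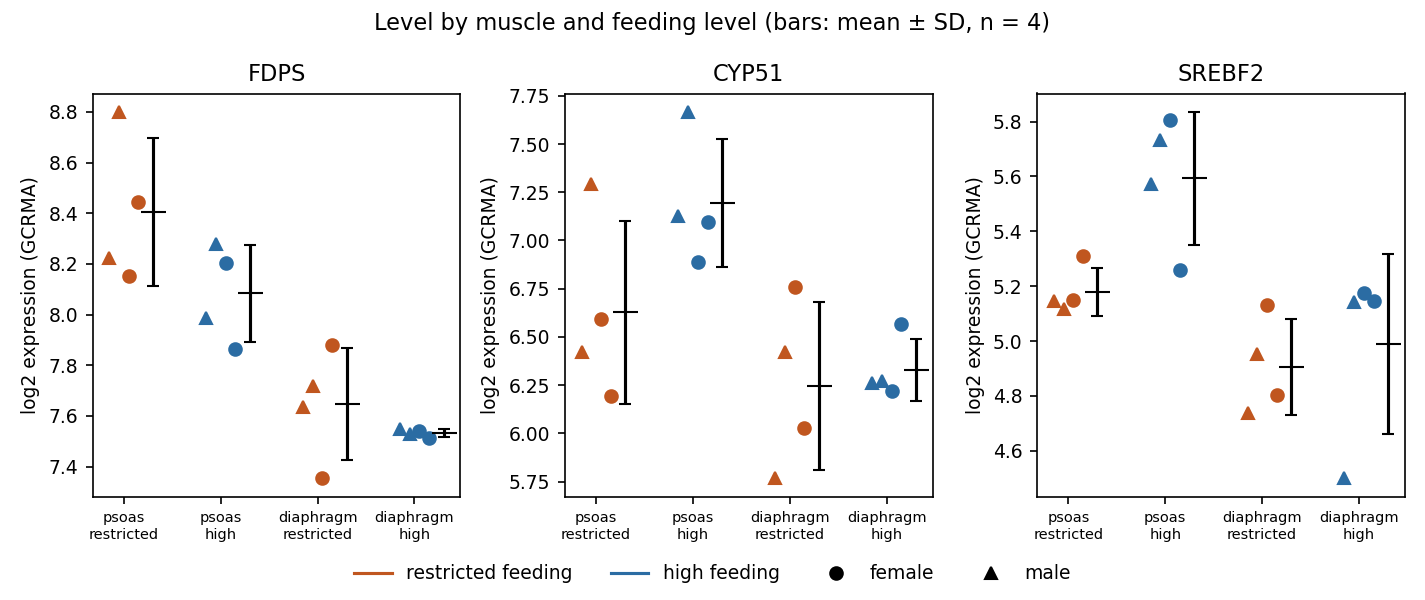
Log2 expression (GCRMA, vertical axis) of FDPS, CYP51 and SREBF2 in 4 groups of muscle and feeding level, with 1 point per array, circles for females and triangles for males, and the mean ± SD (n = 4) beside the points. In psoas the restricted group averages below the high feeding group for CYP51 (6.63 and 7.19) and SREBF2 (5.18 and 5.59) and above it for FDPS (8.40 and 8.08).

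Whether the muscle difference depended on feeding was tested on the paired differences of the animals. For CYP51 the mean paired difference was 0.38 ± 0.47 in restricted animals and 0.86 ± 0.38 in animals on high feeding (log2, SD, n = 4 each), and the difference of the 2 was -0.48 (95% interval -0.86 to -0.10, unadjusted p = 0.0199, limma adjusted p = 0.776). For SREBF2 it was 0.27 ± 0.22 in restricted animals and 0.60 ± 0.39 in animals on high feeding, a difference of -0.33 (-0.80 to 0.14, adjusted p = 0.847). FDPS leaned the other way, with 0.76 ± 0.24 in restricted animals and 0.55 ± 0.19 in animals on high feeding, a difference of 0.21 (-0.17 to 0.59, adjusted p = 0.866). At an unadjusted p under 0.05 stood 6.07% of the probe sets and 0% were called, so that no dependence on feeding was shown for these 3 genes. Of the other genes, INSIG1 (-0.63), UBE2G2 (0.11), ACAT2 (-0.28) and TM7SF2 (0.25) had the largest differences of their lists and were not called.

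Averaged over both muscles of an animal, the restricted minus high difference was 0.22 for FDPS (95% interval -0.07 to 0.51, limma adjusted p = 0.499), -0.33 for CYP51 (-0.78 to 0.13, adjusted p = 0.514) and -0.25 for SREBF2 (-0.51 to 0.02, adjusted p = 0.416). SREBF2 animal means ran from 4.94 to 5.14 in restricted animals, against 5.04 to 5.49 in animals on high feeding. Here 12.7% of the probe sets had an unadjusted p under 0.05 and 0% were called. FDFT1 (0.40), SC5D (-0.38), INSIG1 (-0.28) and UBE2G2 (-0.25) had the largest differences beside the members in the lists of cholesterol synthesis and SREBP control.

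The neighbours of the 3 genes in the pathway were not called between feeding levels either. In psoas, FDFT1, the enzyme after FDPS, differed by 0.39 (log2 difference, restricted minus high), close to the 0.32 of FDPS, and 4 of the 9 synthesis genes had a positive difference, with a median of -0.10 against -0.05 over all genes. INSIG1 differed by -0.60 and UBE2G2, near background, by -0.20. The 5 genes of SREBP control, SREBF2 among them, were all negative in psoas, with a median of -0.20, against -0.05 over all genes. NPC1, which moves cholesterol out of lysosomes, differed by -0.90, LIPA by -0.30 and SCARB1 by 0.23. Of the efflux genes MYLIP (0.51), APOE (0.47) and ABCA1 (0.37) had the largest differences in psoas, and of the isoprenoid branch FNTB (-0.65), ICMT (-0.35) and FNTA (0.24). Of the genes named here the lowest limma adjusted p were those of SREBF2 (0.370), INSIG1 (0.376), APOE (0.383) and FDFT1 (0.398).

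In diaphragm SC5D (-0.44), FDFT1 (0.40) and HSD17B7 (-0.20) had the largest restricted minus high differences of the synthesis genes, with a list median of -0.001. For SREBP control UBE2G2 differed by -0.30 and SCAP by -0.09. NPC1 differed by -0.41, SCARB1 by 0.21 and STARD3, a carrier of endosomal cholesterol, by -0.17. NR1H3 differed by -0.59, MYLIP by 0.32 and ABCA1 by 0.24, while FNTB differed by -0.92, ICMT by -0.60 and RABGGTB by 0.43. None was called in diaphragm, with limma adjusted p of 0.477 for NR1H3 as the lowest among these.

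**Figure D4:**
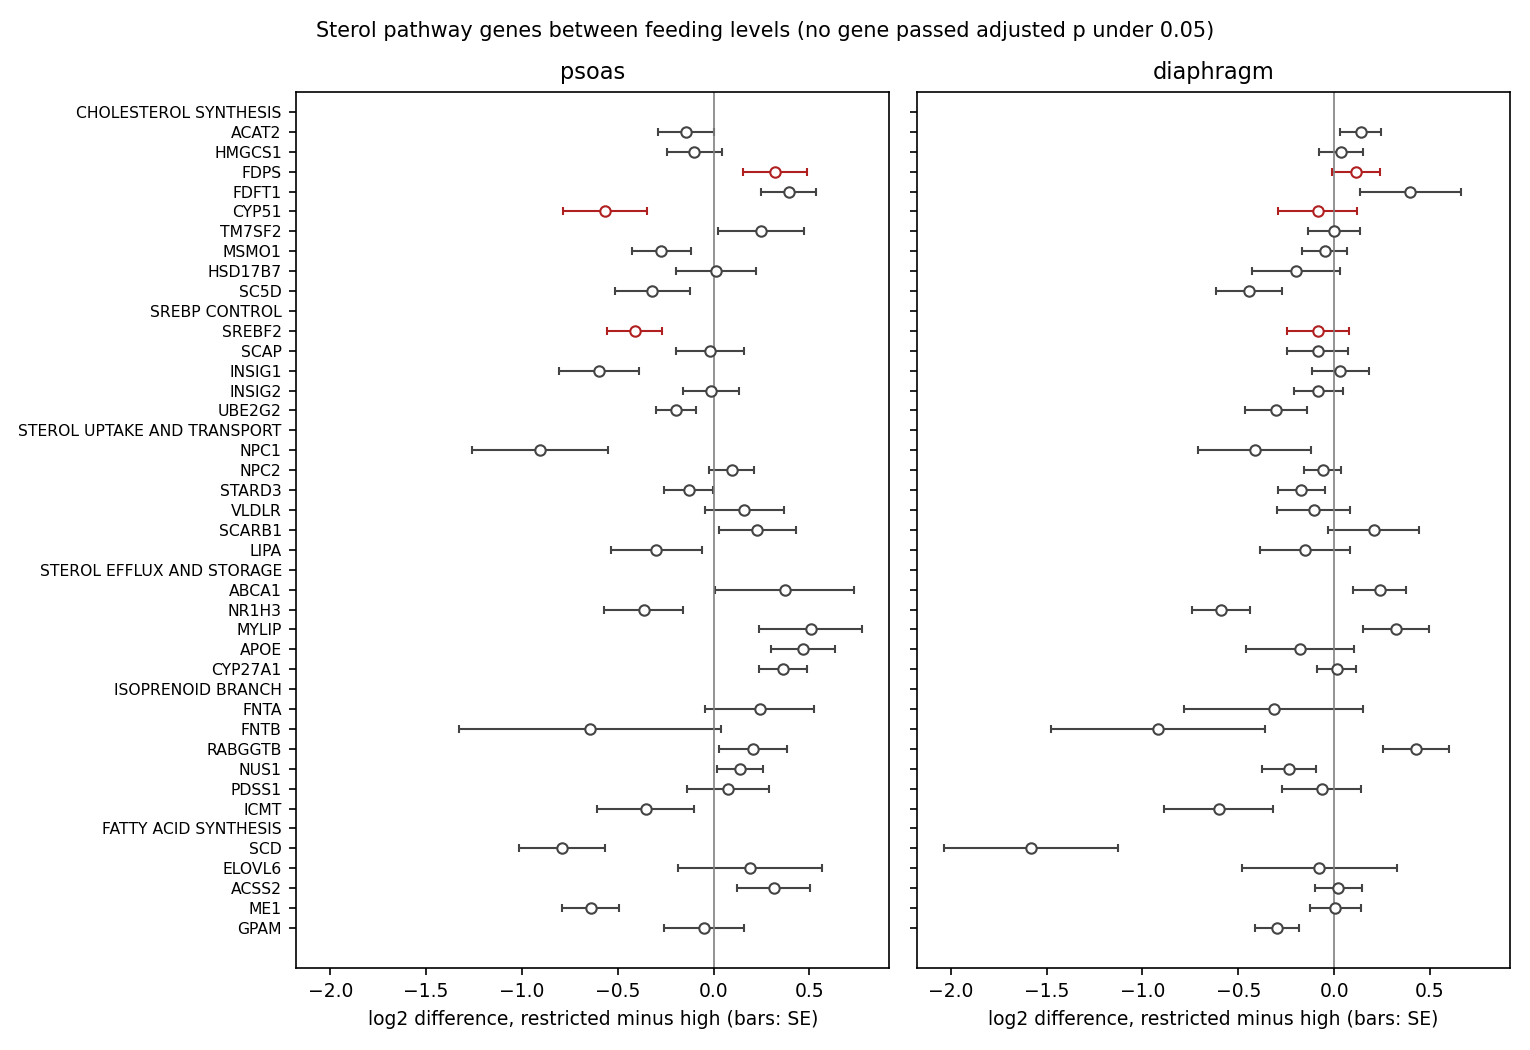
Log2 difference, restricted minus high feeding, on the horizontal axis for the tested genes of the sterol, isoprenoid and fatty acid lists in psoas (left) and diaphragm (right), with bars of 1 SE from limma fits on 8 arrays each. All points are open because none passed an adjusted p under 0.05; in psoas CYP51 (-0.57) and SREBF2 (-0.41) lie left of 0 and FDPS (0.32) lies right of it.

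The actin control and cell markers leaned with feeding in places. The actin 3' minus 5' difference was 3.36 ± 0.26 in restricted psoas and 3.53 ± 0.24 in psoas on high feeding, and 3.996 ± 0.435 in restricted diaphragm against 3.62 ± 0.44 in diaphragm on high feeding (log2, SD, n = 4 each). In the same order of groups, that of GAPDH was -0.13 ± 0.05, -0.08 ± 0.03, -0.03 ± 0.08 and -0.08 ± 0.13. The summed level of the adipocyte markers was 10.3 to 10.8 in restricted psoas, against 10.1 to 10.3 in psoas on high feeding. The median log2 difference of its 3 tested genes was -0.02. In diaphragm the immune sum was 10.40 to 10.96 in restricted animals, against 10.91 to 11.45 in animals on high feeding, with a negative difference in all 7 tested genes and a median of -0.43. The hepatocyte sum in diaphragm was 8.14 to 11.4 in restricted animals, against 9.10 to 10.9 in animals on high feeding, with 1 of 7 tested genes positive and a median of -1.24. In psoas all 9 tested slow fibre genes had a positive difference, with a median of 0.13, against -0.05 over all genes. Their sum was 17.12 to 17.54 in restricted psoas, against 17.01 to 17.51 in psoas on high feeding. In diaphragm 3 of the 9 were positive, with a median of -0.007. Of the 6 fast fibre genes, 5 were positive in psoas and 6 in diaphragm, with medians of 0.07 and 0.13. No marker gene was called between feeding levels in either muscle. With the actin difference as a covariate, the direction of the 3 genes in psoas was as before. The part of the cell markers was not tested.

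None of the 3 genes was called between the sexes. Averaged over both muscles, the female minus male log2 difference was -0.10 for FDPS (95% interval -0.39 to 0.19), -0.11 for CYP51 (-0.56 to 0.34) and 0.11 for SREBF2 (-0.16 to 0.38), with limma adjusted p of 0.876, 0.914 and 0.840. That of CYP51 turned to 0.04 without animal 3. Among all tested probe sets 0.183% were called and 9.17% had an unadjusted p under 0.05. In the 2 lists FDFT1 (0.49), SC5D (-0.24), HMGCS1 (-0.21), INSIG1 (-0.14), INSIG2 (0.13) and SCAP (0.11) had the largest differences and were not called.

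Within a muscle, animals with more SREBF2 mRNA were not shown to have more FDPS or CYP51 mRNA. Over the 8 diaphragm arrays, SREBF2 and CYP51 correlated at Pearson r = 0.53 (rho = 0.40, exact permutation p = 0.180 and 0.327, two-sided), and over the 8 psoas arrays at r = 0.44 (rho = 0.17, exact permutation p = 0.273 and 0.703). The r fell to 0.36 in diaphragm without the 2 arrays farthest from the CYP51 median, and to 0.19 in psoas. SREBF2 and FDPS correlated at r = -0.42 in diaphragm (rho = -0.57, exact permutation p = 0.304 and 0.151) and at r = -0.26 in psoas (rho = -0.24, exact permutation p = 0.552 and 0.582), and at -0.27 and -0.14 without the 2 farthest arrays. FDPS and CYP51, the 2 enzymes, correlated at r = -0.62 in diaphragm (rho = -0.69, exact permutation p = 0.0973 and 0.0694) and at r = 0.01 in psoas (rho = 0.02, exact permutation p = 0.975 and 0.977). Without the 2 farthest arrays these were -0.23 and -0.37. Adjusted over the 6 relations the lowest p of an r was 0.456 and that of a rho 0.416. After sex and feeding were subtracted, r in psoas became 0.47 for FDPS with SREBF2, -0.18 for CYP51 with SREBF2 and 0.54 for FDPS with CYP51, none of them past the threshold.

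**Figure D5:**
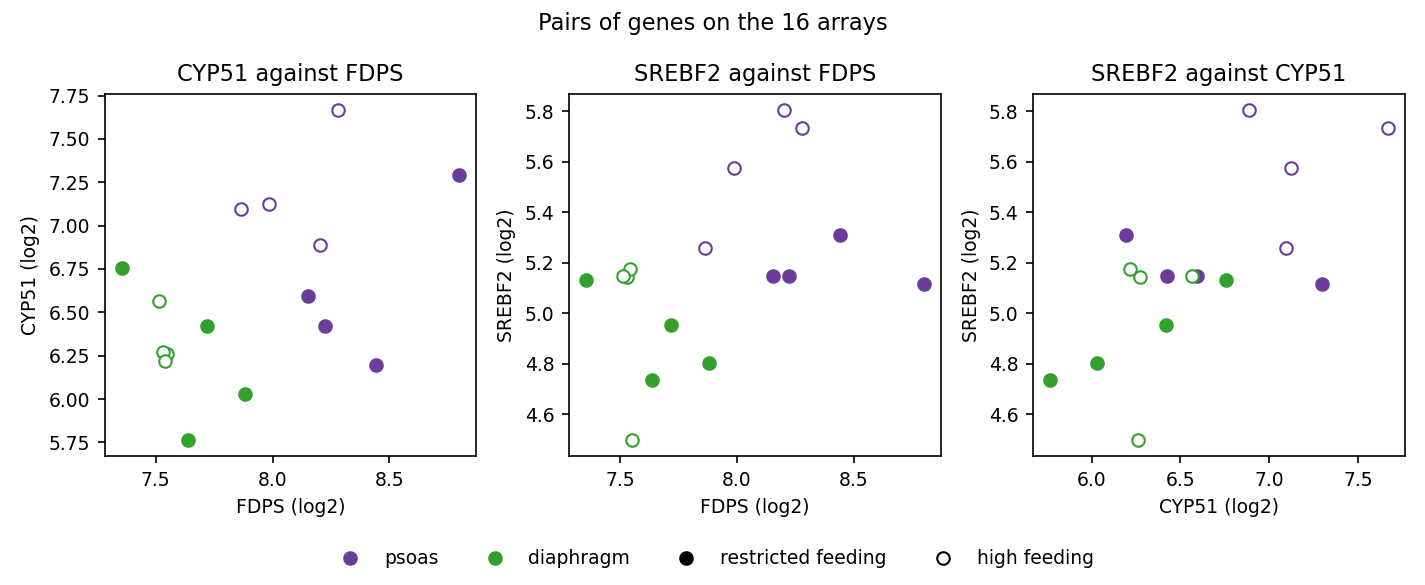
Log2 expression of each pair among FDPS, CYP51 and SREBF2 on 16 arrays, in purple for psoas and green for diaphragm, filled for restricted and open for high feeding. The muscles separate best along the FDPS axis, while within psoas FDPS and CYP51 show no slope (r = 0.01) and within diaphragm they slope down (r = -0.62, exact permutation p = 0.0973, n = 8).

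Genes whose values were most like each of the 3 were found among all genes tested. After each muscle's mean was subtracted, Pearson r over the 16 arrays, which are 2 per animal, was computed with 4570 other genes as a description. FDPS was most like ACAA1, the thiolase of peroxisomal fatty acid oxidation (r = 0.84), ZNF784 (0.84), MBIP (0.81), GTPBP10 (0.74) and ITM2B (0.73), against -0.15 with CYP51 and -0.30 with SREBF2. CYP51 was most like the kinase MAP4K4 (0.90), the transcription factor FOXO1 (0.86), PHOSPHO2 (0.84), the ubiquitin-conjugating enzyme UBE2K (0.83) and TMED2, a cargo protein of secretory vesicles (0.82), against 0.47 with SREBF2. SREBF2 was most like MAP7D1 (0.82), LOC100518575 (0.77), SAP30BP (0.76), the actin-binding TWF2 (0.74) and the natriuretic peptide receptor NPR2 (0.73). Within the muscles, r with CYP51 was 0.92 in psoas and 0.84 in diaphragm for MAP4K4, and 0.85 and 0.90 for FOXO1. That of ACAA1 with FDPS was 0.87 in psoas and 0.83 in diaphragm. The search had used these same arrays, so that a high r in each muscle follows from the choice of these genes.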

How the data were processed

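Total RNA of each muscle was hybridised as biotinylated cRNA to Affymetrix porcine arrays, per the labels' protocols. The log2 values per probe set were deposited by the authors, and per the submitters' processing notes GCRMA made them, in a version not given in the sources used here. This method removes shifts shared by most genes and compresses values near the floor. Of 24123 probe sets, 10099 had 1 symbol, 198 several and 13826 none in the platform annotation.

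Probe sets at or above 4 on at least 4 arrays were tested, without the 124 control probe sets, with limma 3.58.1 in R 4.3.3 and Benjamini-Hochberg adjustment over all 11467, and called at an adjusted p under 0.05. Code was tested on simulated data. Muscles were compared on 16 arrays with sex and feeding as covariates and no term for the animal, so that this fit did not use the pairing. Feeding and sex were compared on 8 animal means, or on 8 arrays of 1 muscle, with the other factor as covariate. The probe set with the highest mean stood for a gene. The number of arrays limits the precision. Relations within a muscle had exact permutation tests over 8 arrays. Arrays of the 2 muscles were paired through the animal number in their titles, for the paired differences, the animal means and the animal block. Deviations of the 2 arrays of an animal correlated at 0.199 to 0.281. Named in the lists were called genes or, where none was called, the 3 of largest difference. For the comparisons averaged over muscles, by sex and of the muscle dependence this was done in 2 lists only. Between the muscles all tested genes of cholesterol synthesis and SREBP control were named, and FNTA as the partner of FNTB. Genes that gained a call under an alternative were named as well. The members and lists were chosen with earlier results of these data known. Alternatives were the filter, centring, the actin covariate, no covariate, the animal block and leaving out each animal.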

Additional observations from a re-analysis of the deposited data

Results flagged for a closer look

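In 27 groups of 4 or 8 values of the 3 genes, 3 values lay far from the rest of their group by Dixon's test, where chance gives about 1 in 20. In diaphragm on high feeding, SREBF2 of animal 1 was 4.50, with the nearest of the other 3 arrays at 5.14. This array also had an actin 3' minus 5' difference of 4.28, against 3.35 to 3.49 on the other 3, and whether this bears on SREBF2 was not tested. CYP51 of animal 7 in the same group was 6.57, with the nearest at 6.27. In restricted psoas, SREBF2 of animal 8 was 5.31, with the nearest at 5.15. Without animal 1 the SREBF2 difference between psoas and diaphragm was 0.35.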

How the results depend on the processing

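Of 1205 recomputed values of the named genes, the counts and the correlations, 22 changed direction, 17 lost and 1 gained a call. Another 10, all counts, moved by over 1.5 times or away from 0, and 1155 did none of these. The muscle differences of the 3 genes were judged by direction and by a shift under the SD of their paired differences, and not by calls. Outside that tally, list genes not called between muscles gained a call: NPC1 and NR1H3 with the animal block, SCD with the actin covariate, CYP27A1 and PRKAG2 without animal 4 and SC5D without animal 8. The psoas minus diaphragm differences of FDPS, CYP51 and SREBF2 stayed positive in all 13 alternatives, within 0.54 to 0.70, 0.51 to 0.74 and 0.35 to 0.50. The genes were chosen on these differences, so that their staying positive is a description only. A filter of probe sets cannot change the difference of a gene, so that those alternatives add nothing on the differences, though they can change calls. With the animal as a block 3836 probe sets were called between muscles, and the 3 differences were 0.65, 0.62 and 0.44, the same as without it by construction. As a random block over 16 arrays it gave 0 calls for feeding and 39 for sex, against 21. Counts of calls between feeding levels were 0, but 0 to 1 over both muscles, 0 to 2 in diaphragm and 0 to 1 in psoas when 1 animal was left out, 1 in diaphragm and 2 in psoas with no filter, and 2 in diaphragm without the sex covariate. Sex gave 13 to 23 calls with 1 animal left out. The cause was not tested.

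With 1 animal left out, restricted minus high in diaphragm ran from -0.25 to 0.062 for CYP51, -0.23 to 0.023 for SREBF2, -0.36 to 0.33 for ELOVL6, -0.061 to 0.41 for SCARB1 and -0.22 to 0.020 for SCAP. In psoas FNTB ran from -1.12 to 0.0019. The sex difference ran from -0.27 to 0.036 for CYP51 and from -0.23 to 0.0065 for INSIG1, and the UBE2G2 dependence on feeding from -0.012 to 0.20. The r of FDPS with CYP51 in psoas ran from -0.41 to 0.24, and that of FDPS with SREBF2 from -0.43 to 0.090. With sex and feeding subtracted, r in psoas was 0.47 for FDPS with SREBF2 and -0.18 for CYP51 with SREBF2. With the actin covariate SCAP in diaphragm was 0.078 and the UBE2G2 dependence on feeding -0.024. For the 3 genes the mean over tested probe sets was that of 1 probe set, so that this alternative changed nothing by construction.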

Other observations

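Genes of fatty acid synthesis, the other branch of SREBP targets, were measured beside the sterol genes. Of 5 tested, ELOVL6, which lengthens fatty acids, was called lower in psoas (log2 difference -1.25 ± 0.29, SE, limma adjusted p = 0.0057). This was 1 call of 5, against 29.5% of all genes. With the actin covariate SCD was called lower in psoas too, which made 2 of 5, while the calls over all tested probe sets fell from 3094 to 2373. SCD, which desaturates fatty acids, had the largest differences between feeding levels, -0.79 in psoas and -1.58 in diaphragm (restricted minus high), with limma adjusted p of 0.321 and 0.477. Its mean level was near background, at 4.04 in psoas and 4.79 in diaphragm. ME1, the cytosolic malic enzyme, differed by -0.64 in psoas (limma adjusted p = 0.321) and ACSS2 by 0.31. In diaphragm GPAM, near background at a mean of 4.40, differed by -0.30 and ELOVL6 by -0.08. None was called.

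Of 7 tested genes of AMPK and mTOR signalling, PRKAA2, the catalytic subunit of muscle, was called higher in psoas (0.32 ± 0.10, SE, limma adjusted p = 0.0253), but not with the actin covariate or without animal 1, 2, 3, 7 or 8 (adjusted p from 0.0519 to 0.0794). That was 1 call of 7, against 29.5% of all genes. Without animal 4 PRKAG2 was called lower. Between feeding levels PRKAG2 differed by -0.79, AKT1 by -0.43 and PRKAA2 by 0.20 in psoas, and AKT1 by -0.63, PRKAG2 by -0.39 and PRKAB1 by 0.28 in diaphragm, none called, with adjusted p of at least 0.321.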
